A study of Homo sapiens with 6 samples.

Results

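SMAD2/3 binding in Hs578T cells was compared with that in BT549 cells after 16 h of TGFβ3, from the deposited peak list of each line. Both lists were taken whole, 1849 peaks for Hs578T and 8153 for BT549, together 10002 of the 20600 peaks in the series. A peak was counted as shared when it overlapped a peak of the other line by at least 1 bp, and peaks were ranked by score within their own list, rank 1 being the highest. Hs578T and BT549 are established human triple-negative breast cancer lines. The cells were grown in DMEM with insulin (Hs578T) or RPMI-1640 with insulin (BT549), both with serum, and stimulated with recombinant human TGFβ3, so line and medium cannot be told apart. Chromatin was immunoprecipitated with an antibody against SMAD2/3 and sequenced. There was 1 library per line and time, with further lists at 1.5 h and untreated input DNA that was not analysed here. With no replicate, no difference was tested and no p-value is given; intervals are 95% Wilson intervals and cover counting error only. Read depth is unknown, and scores are the authors' own, so they describe the order of peaks in one list and do not measure one line against the other.

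TGFβ ligands bind a pair of receptor kinases that phosphorylate SMAD2 and SMAD3, which then join SMAD4 in the nucleus and bind DNA together with transcription factors of the cell type. SMADs switch on their own inhibitors, among them SMAD7, SMAD6, SKIL and PMEPA1, and in mesenchymal cells they also act on genes of the extracellular matrix, integrins and contractile fibres. Which other sites they reach is known to depend on the partner factors and open chromatin of each cell type.

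The SMAD proteins recognise short DNA letters, so the 250 bases before the start of 5 genes in windows described below are shown for orientation, from RefSeq on GRCh38.p14, each on its gene's strand. They were chosen after the peak values were seen. SMAD6 (chr15:66701986-66702235, plus strand), SMAD7 (chr18:48950966-48951215, minus) and ID1 (chr20:31605039-31605288, plus) stand for loci with overlapping peaks of both lines. HOXA10 (chr7:27179862-27180111, minus) stands for the HOXA cluster, led by Hs578T, and TGFBI (chr5:136028738-136028987, plus) for one with BT549 peaks and no Hs578T peak. Capitals mark the SMAD palindrome GTCTAGAC, the single element GTCT (AGAC on the other strand) and the GC-rich letters GGCGCC.
SMAD6: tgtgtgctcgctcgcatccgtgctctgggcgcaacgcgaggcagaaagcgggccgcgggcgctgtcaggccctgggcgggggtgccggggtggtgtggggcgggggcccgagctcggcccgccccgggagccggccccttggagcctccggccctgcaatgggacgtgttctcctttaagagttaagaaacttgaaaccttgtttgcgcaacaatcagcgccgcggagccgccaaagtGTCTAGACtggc
SMAD7: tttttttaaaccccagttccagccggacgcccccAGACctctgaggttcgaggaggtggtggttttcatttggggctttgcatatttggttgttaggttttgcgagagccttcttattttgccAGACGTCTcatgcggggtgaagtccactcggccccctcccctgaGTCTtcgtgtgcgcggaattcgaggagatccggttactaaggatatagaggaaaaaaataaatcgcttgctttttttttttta
ID1: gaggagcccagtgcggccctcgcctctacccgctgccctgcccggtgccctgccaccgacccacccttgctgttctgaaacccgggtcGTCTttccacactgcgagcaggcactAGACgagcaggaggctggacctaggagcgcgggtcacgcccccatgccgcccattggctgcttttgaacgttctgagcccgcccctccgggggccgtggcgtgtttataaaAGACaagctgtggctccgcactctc
HOXA10: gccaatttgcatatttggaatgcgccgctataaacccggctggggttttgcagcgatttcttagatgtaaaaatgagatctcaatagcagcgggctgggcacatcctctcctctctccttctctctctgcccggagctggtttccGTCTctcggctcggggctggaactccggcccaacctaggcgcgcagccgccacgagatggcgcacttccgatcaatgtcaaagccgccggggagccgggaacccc
TGFBI: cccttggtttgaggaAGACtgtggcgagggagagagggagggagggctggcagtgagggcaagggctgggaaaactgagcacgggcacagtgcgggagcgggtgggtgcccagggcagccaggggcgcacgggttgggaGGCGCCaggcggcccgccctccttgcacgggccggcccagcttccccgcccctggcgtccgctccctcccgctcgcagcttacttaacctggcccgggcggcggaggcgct
The whole palindrome occurred once, in SMAD6, and in 64 of 35116 RefSeq promoters of this length, or 0.182%. It contains GTCT on both strands, which makes up the 2 single elements of SMAD6. SMAD7 held 4 single elements, ID1 held 3, and HOXA10 and TGFBI held 1 each; 77.5% of all these promoters held at least 1. GGCGCC occurred once in TGFBI and in 16.4% of the promoters. The peaks are on hg19, another build, so whether a peak covers these letters was not determined.

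A BT549 peak at 16 h was overlapped by 190 of 1849 Hs578T peaks, which is 10.3% (8.97 to 11.7). A Hs578T peak was overlapped by 177 of 8153 BT549 peaks, which is 2.17% (1.88 to 2.51). Counting BT549 peaks at either time as a match brought in 65 further Hs578T peaks, for 255 in all or 13.8% (12.3 to 15.4). Counting Hs578T peaks at either time brought in 52 further BT549 peaks, for 229 in all or 2.81% (2.47 to 3.19). Most peaks of each line at 16 h thus had no listed counterpart in the other line at 1.5 h or at 16 h.

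Overlap was most frequent among the highest-score peaks of either list. Among the first 50 peaks, 30% of those in Hs578T (19.1 to 43.8) and 20% of those in BT549 (11.2 to 33.0) had a peak of the other line. At ranks 201 to 500 the shares were 16% in Hs578T (12.3 to 20.6) and 3.67% in BT549 (2.06 to 6.45). At ranks 1001 to 1849 they were 5.54% in Hs578T (4.19 to 7.28) and 2.24% in BT549 (1.44 to 3.47). The Hs578T peaks were set against a list 4.41 times as long, which raises their share. Median width also fell from the first 50 peaks to ranks 1001 to 1849, from 596 to 143 bp in Hs578T and from 782 to 349 bp in BT549. Wider peaks have more room to overlap, and rank and width were not separated.

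**Figure D1:**
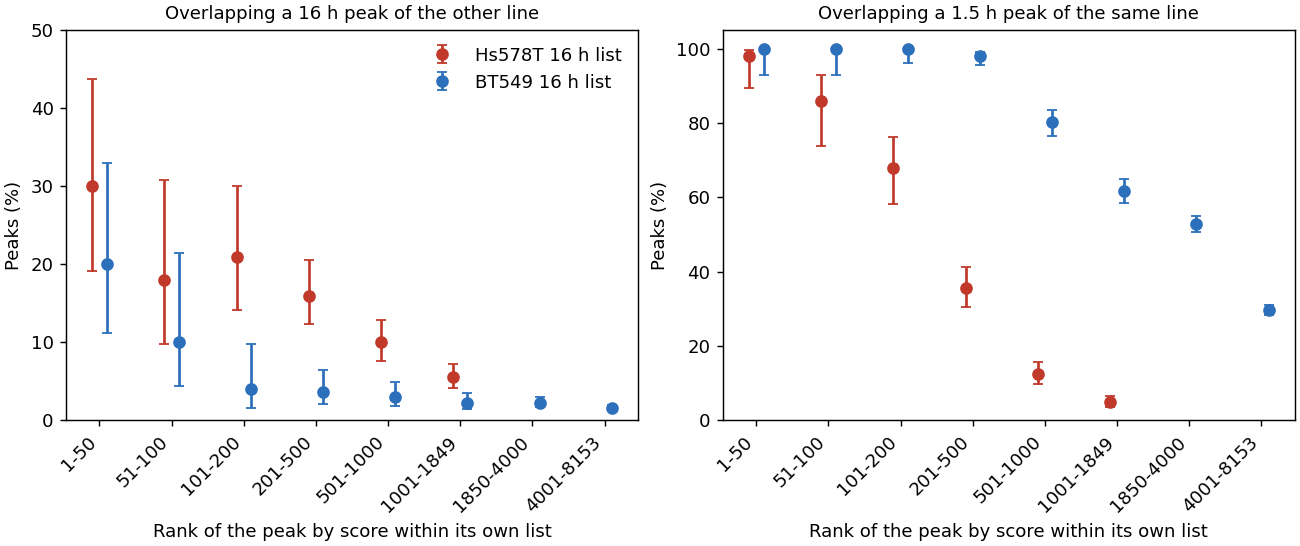
Share of 16 h peaks (%), by rank of the peak within its own list, that overlapped a 16 h peak of the other line (left) or a 1.5 h peak of the same line (right); points are the Hs578T list (red) and the BT549 list (blue) and bars are 95% Wilson intervals. In the first 50 ranks 98% of Hs578T and 100% of BT549 peaks recurred at 1.5 h in their own line, while 30% of Hs578T and 20% of BT549 peaks had a peak of the other line.

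High rank went with presence at both times far more than with presence in both lines. Of the 100 highest-score peaks in each list, 76 in Hs578T and 85 in BT549 had no 16 h peak of the other line. Of those, 68 Hs578T peaks and all 85 BT549 peaks were also in their own line's 1.5 h list, while 4 Hs578T peaks overlapped a BT549 1.5 h peak and 4 BT549 peaks overlapped a Hs578T 1.5 h peak. Shared peaks recurred at 1.5 h more often in these lists than unshared ones: 42.6% (35.8 to 49.7) of shared and 17.5% (15.7 to 19.4) of unshared Hs578T peaks, and 70.6% (63.5 to 76.8) of shared and 46.0% (44.9 to 47.1) of unshared BT549 peaks. Within ranks 201 to 500 the Hs578T shares lay close together, at 37.5% (25.2 to 51.6) of shared and 35.3% (29.7 to 41.4) of unshared peaks. Within ranks 501 to 1000 they stood apart, at 32.0% (20.8 to 45.8) and 10.2% (7.75 to 13.4). In BT549 every peak of ranks 1 to 200 recurred, shared or not. At ranks 201 to 500 the BT549 shares were 90.9% (62.3 to 98.4) of 11 shared peaks and 98.3% (96 to 99.3) of unshared ones. In each later range shared BT549 peaks recurred more often. At ranks 4001 to 8153 the shares were 53.8% (41.9 to 65.4) of shared and 29.4% (28 to 30.8) of unshared peaks. Shared peaks were also wider at the median, 178 bp against 150 bp for unshared peaks in Hs578T and 282 bp against 239 bp in BT549, and a wider peak has more room to overlap.

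Overlapping peaks formed 174 regions, 158 of them with 1 peak from each line. The BT549 peak was the wider in 128 regions, and in 76 the Hs578T peaks lay wholly inside BT549 peaks. Ranks of the same region differed widely, with a Spearman coefficient of 0.191 over the 174 regions, given as a description only, since regions of 2 libraries are no replicates. The highest 10% of the Hs578T list (rank 184 or better) held 40 regions and that of the BT549 list (rank 815 or better) held 42, and 16 regions were in both. Of all 174 regions, 60 were also listed at 1.5 h in both lines, 16 at 1.5 h in Hs578T alone, 64 in BT549 alone and 34 in neither.

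**Figure D2:**
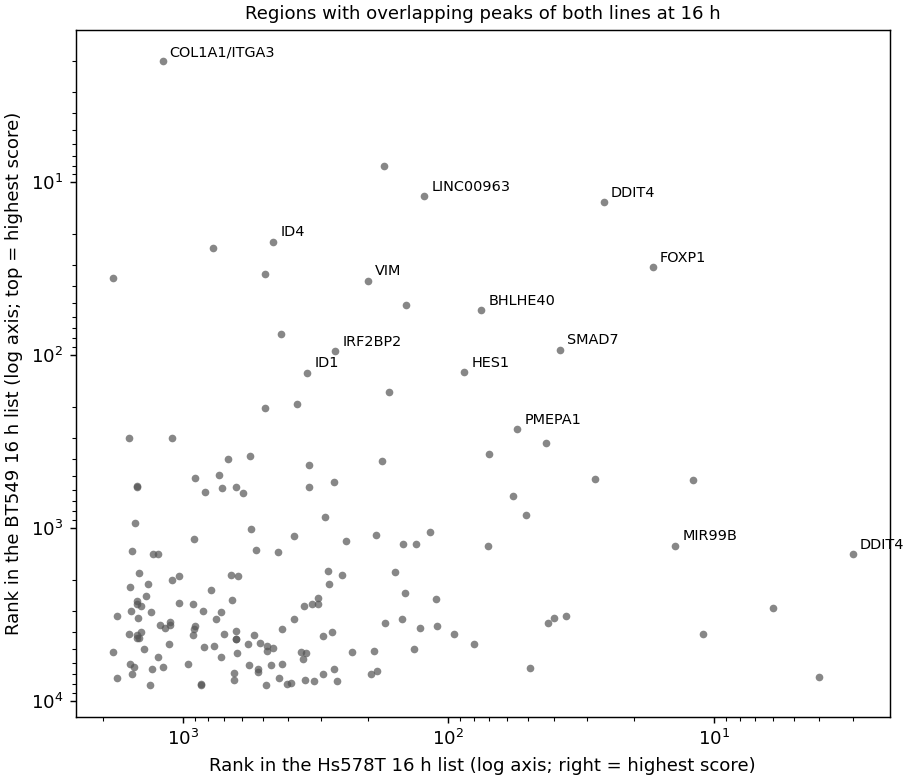
Rank of each of the 174 shared regions in the Hs578T 16 h list (x, log axis) and in the BT549 16 h list (y, log axis), with the highest scores to the right and at the top; each point is a region, taken at its best peak per line, and some are named by their locus. FOXP1, SMAD7 and one DDIT4 region rank high in both lines, while COL1A1/ITGA3 ranks 2 in BT549 and 1190 in Hs578T and another DDIT4 region ranks 3 in Hs578T and 1415 in BT549.

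To speak of gene loci, each of 165 loci from 15 lists of genes was given a window around the gene, 200 to 800 kb wide with a median of 300 kb, and a peak was assigned by its midpoint. No hg19 annotation was at hand: the windows were placed from general knowledge of the hg19 map, with 50 kb or more to either side, and the RefSeq table gave the same chromosome for all 165 symbols. The spans used for COL5A2, CALD1, ZNF503 and SMAD4 differed more from that table in length than the others did, and their windows are the least certain. The assignment is therefore coarse, a peak in a window is not shown to act on the gene that names it, and distances to genes were not computed. Neighbours such as COL1A1 and ITGA3, or TGFB1 and AXL, share peaks. Another 39 loci were added after the leading peaks were seen, DDIT4, HES1, VIM and TSC22D3 among them, and these enter no count.

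Of the 165 windows, 47 (28.5%) held a Hs578T peak, where 12.9% of 300 kb windows along the genome did. BT549 peaks were in 132 (80.0%), against 41.3% of genome windows, and peaks of both lines in 40 (24.2%), against 6.85%. Overlapping peaks of both lines were in 24 (14.5%), against 1.47% of genome windows. Windows with 3 or more peaks numbered 15 (9.09%) for Hs578T, against 1.01% of genome windows, and 65 (39.4%) for BT549, against 9.28%. The lists hold known TGFβ target genes, chosen with earlier results of these data known, so an excess over the genome is no finding about either line. Because the lists differ in length, BT549 was also counted with its 1849 highest-score peaks. These fell in 13.1% of genome windows, nearly the Hs578T share, and in 81 (49.1%) of the 165 locus windows.

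Of 11 loci of inhibitors and other feedback genes of the pathway, 7 held Hs578T peaks, all of them with BT549 peaks too. In all, 10 held BT549 peaks (7 with the shortened BT549 list), and 5 held overlapping ones: SMAD7, SMAD6, SKIL, PMEPA1 and TGIF1. The shares were 63.6% for Hs578T and 90.9% for BT549, where 12.9% and 41.3% of genome windows held a peak. Overlaps were in 45.5% of these loci and in 1.47% of genome windows. SKI, SMURF1 and TGIF2 had BT549 peaks and no Hs578T peak, and BAMBI had a peak of neither line at 16 h. At SMAD7, the inhibitory SMAD that blocks the receptor, 8 peaks were listed in Hs578T and 13 in BT549, and 5 of the Hs578T peaks overlapped BT549 peaks. Its leading region, chromosome 18 from 46478507 to 46479465 (hg19, as are all peak positions), ranked 38 in Hs578T with a score of 433.0 and 93 in BT549 with 504.8. At SMAD6, the inhibitory SMAD of the BMP branch, the leading peak ranked 12 in Hs578T with a score of 675.1 and 527 in BT549 with 229.4.

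PMEPA1, which keeps receptor SMADs from the receptor, had 5 peaks in each line but only 1 Hs578T peak with a BT549 overlap. That shared region, chromosome 20 from 56284891 to 56285404, ranked 55 in Hs578T and 268 in BT549. The highest BT549 peak of the window, from 56323450 to 56324138, ranked 16 and lay 38046 bp from the nearest Hs578T peak. The locus was thus listed in both lines with different leading sites. SKIL, a SMAD corepressor, had 4 Hs578T and 3 BT549 peaks, and 3 of the Hs578T peaks overlapped BT549 peaks. LDLRAD4, a relative of PMEPA1, had 3 Hs578T peaks, the best at rank 48, and 1 BT549 peak at rank 5823, with no overlap. SMURF2, a ubiquitin ligase of the pathway, had 1 Hs578T peak at rank 1054 and 3 BT549 peaks, the best at rank 159, with no overlap.

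All 4 ID genes, which encode inhibitors of basic helix-loop-helix factors, had overlapping peaks in their windows. Of 300 kb genome windows 1.47% held an overlap, 12.9% a Hs578T peak and 41.3% a BT549 peak. The leading ID4 region ranked 457 in Hs578T and 22 in BT549, with scores of 84.31 and 860.3. For ID1, 2 Hs578T and 9 BT549 peaks were listed, and its leading region, chromosome 20 from 30192032 to 30192437, ranked 340 in Hs578T and 126 in BT549. That region is less than 1 Mb away from where the longest peak-free span of chromosome 20 begins or ends. ID3 had 3 Hs578T peaks, the best at rank 126, and 7 BT549 peaks, the best at rank 301. These best peaks did not overlap each other, and the shared ID3 region ranked 617 in Hs578T and 1893 in BT549. ID2 had 2 Hs578T peaks, the best at rank 291, and 1 BT549 peak at rank 1112. The Hs578T peak that overlapped this BT549 peak was the lower one, at rank 380.

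Transcription factor loci supplied several further leading shared regions. FOXP1, a forkhead repressor, ranked 17 in Hs578T (score 603.6) and 31 in BT549 (score 750.2) at chromosome 3 from 71560128 to 71560759. BHLHE40, a stress- and clock-linked repressor, had 5 Hs578T and 8 BT549 peaks, 4 of the Hs578T peaks with an overlap, and 2 of its regions were among the 20 leading shared ones. HES1, the Notch-pathway repressor, likewise gave 2 leading regions, from 6 Hs578T and 5 BT549 peaks. The IRF2BP2 region ranked 266 in Hs578T and 95 in BT549. Regions in the windows of VIM, a mesenchymal intermediate filament, and VCAN, a matrix proteoglycan, were shared too. VIM ranked 201 in Hs578T and 37 in BT549, and VCAN ranked 371 in Hs578T and 191 in BT549.

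The 20 leading shared regions also lay in the windows of LINC00963, MIR181A2HG, PDXK and GRHL3. Their ranks in Hs578T were 123 for LINC00963, 144 for MIR181A2HG, 167 for PDXK and 426 for GRHL3. In BT549 LINC00963 ranked 12, MIR181A2HG 51, PDXK 164 and GRHL3 75. The remaining 3 were in no named window: chromosome 4 from 166501285 to 166502114 (rank 174 in Hs578T, 8 in BT549), chromosome 15 from 85458013 to 85458541 (177 in Hs578T, 411 in BT549) and chromosome 21 from 9826892 to 9827719 (335 in Hs578T, 429 in BT549), which also lies beside such a span.

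At DDIT4, a stress-induced inhibitor of mTORC1, both lines had many peaks but in a different order. Of 8 Hs578T and 10 BT549 peaks, 5 Hs578T peaks had an overlap. The region from 74020229 to 74021316 on chromosome 10 ranked 3 in Hs578T with a score of 1294 and 1415 in BT549 with 138.2. The region from 74079063 to 74080120 ranked 26 in Hs578T with 500.5 and 13 in BT549 with 1001. There were 24 shared regions with a rank of 184 or better in Hs578T and beyond 815 in BT549, and 26 with a rank beyond 184 in Hs578T and 815 or better in BT549. Those led by Hs578T included the MIR99B window, ranks 14 in Hs578T and 1264 in BT549, and places in the HOXA, HOXB and HOXC windows. Those led by BT549 included TGIF1, a SMAD corepressor, ranks 489 in Hs578T and 203 in BT549. The COL1A1/ITGA3 region, chromosome 17 from 48255123 to 48256219, ranked 1190 in Hs578T with a score of 57.05 and 2 in BT549 with 1913.

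Peaks of the HOX clusters, the genes of body-axis identity, stood out in Hs578T. The 4 cluster windows held 71 Hs578T and 19 BT549 peaks, though the whole Hs578T list is the shorter one. For Hs578T, 4 of the 4 held 3 or more peaks, where 1.01% of genome windows did. For BT549, 3 of the 4 did, against 9.28% of genome windows. HOXA, HOXB and HOXC thus held 3 or more listed peaks in both lines, and HOXD in Hs578T only. HOXA held 22 Hs578T and 5 BT549 peaks, HOXB 21 Hs578T and 4 BT549 peaks, and HOXC 17 Hs578T and 10 BT549 peaks. HOXD held 11 Hs578T peaks and 0 BT549 peaks. The highest peak of the Hs578T list lay in the HOXA window on chromosome 7, from 27219472 to 27220308. Its score was 1498, and the nearest BT549 peak was 6654 bp away. HOXD, with a best rank of 5 in Hs578T, had no BT549 peak within 478389 bp of that site at 16 h and none in its window at 1.5 h. Overlapping peaks were listed in the other 3 clusters, for 2 Hs578T peaks at HOXA, 1 at HOXB and 4 at HOXC.

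The 20 leading Hs578T peaks without a BT549 overlap were all also in the Hs578T 1.5 h list, and none overlapped a BT549 1.5 h peak. Besides 5 in HOX windows, they included sites in the windows of ZNF503 and ZNF703, related zinc finger proteins of development. ZNF503 had 8 Hs578T peaks, the best at rank 9, and 1 BT549 peak at rank 2807. ZNF703 had 4 Hs578T peaks, the best at rank 22, and no BT549 peak at 16 h. At 1.5 h BT549 had 4 peaks listed in the ZNF503 window and 1 in the ZNF703 window. TSC22D3, a glucocorticoid-induced leucine zipper protein on chromosome X, had 8 Hs578T peaks (best rank 19) and no BT549 peak at 16 h, but 2 BT549 peaks were listed there at 1.5 h. GOLIM4, CNTNAP2 and PTPN14 windows held 1 each of these leading peaks, at ranks 13, 20 and 23. Another 8 of the 20 lay in no named window.

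PRDM16, a zinc finger regulator of brown fat identity, was listed in both lines at different sites. Its window held 8 Hs578T and 6 BT549 peaks, and none overlapped. The leading Hs578T peak, chromosome 1 from 3309541 to 3310722, ranked 2 with a score of 1485. The leading BT549 peak, from 3229351 to 3230548, ranked 25 with a score of 842.9. Of the 40 loci with peaks of both lines, 24 had an overlap and 16 had none, where 21.4% of the genome windows with peaks of both lines held an overlap. The 10 of these with the best worse rank were PRDM16, TGFB1, AXL, ADAM12, RUNX1, SMURF2, JUN, FOSB, COL6A3 and LTBP2, and in all of them but PRDM16 Hs578T had 1 peak, at rank 406 or beyond.

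**Figure D3:**
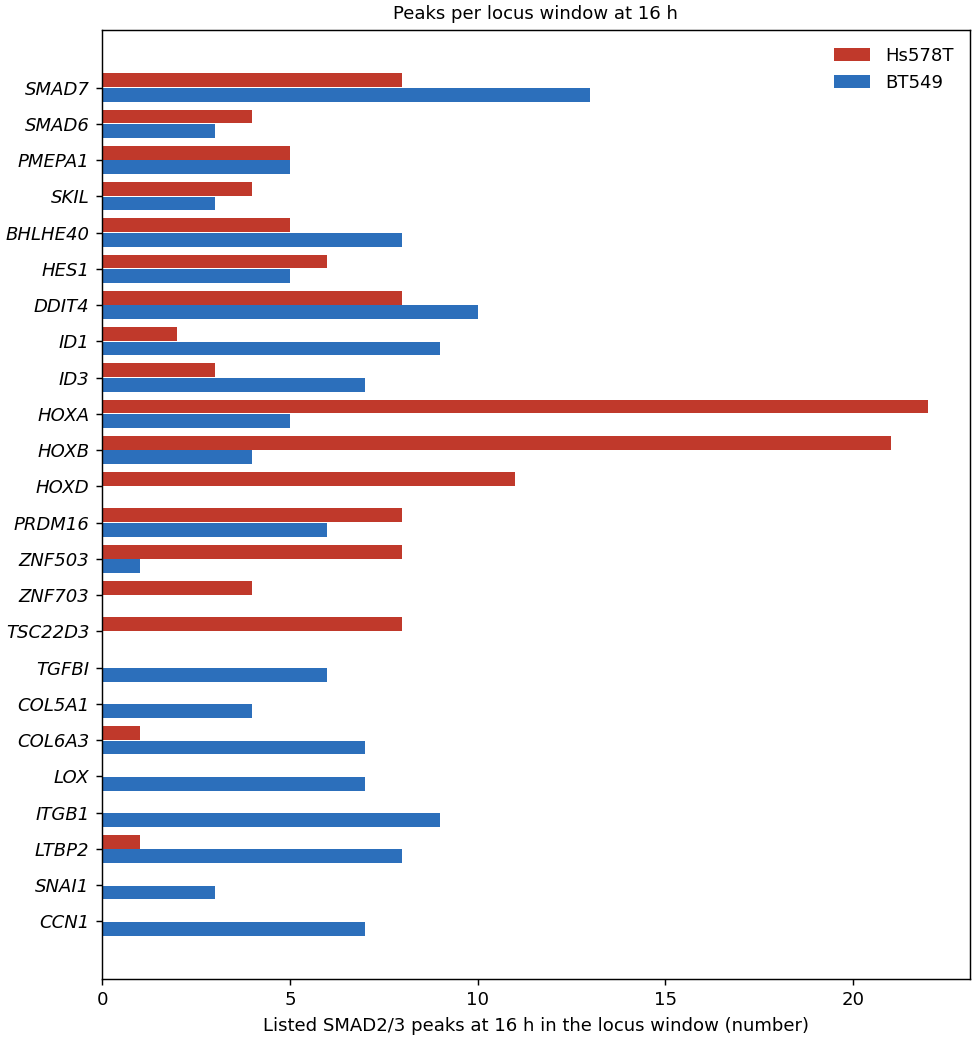
Number of listed 16 h peaks in the window of each locus (x) for 24 loci named in the text or in its lists, chosen after their values were seen, with Hs578T (red) above BT549 (blue) in each pair. Feedback and ID loci at the top have peaks of both lines, HOXA shows 22 Hs578T and 5 BT549 peaks, and TGFBI, COL5A1, LOX, ITGB1, SNAI1 and CCN1 show BT549 peaks and none of Hs578T.

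At extracellular matrix loci the BT549 count was the higher one. Of 22 matrix loci, Hs578T peaks were in 3 (COL1A1, COL6A3 and VCAN), or 13.6%, close to the 12.9% of genome windows, and BT549 peaks in 21, or 95.5%, all but COL3A1, against 41.3% of genome windows. With BT549 cut to its 1849 highest-score peaks, 15 of the 22 still held one, or 68.2% against 13.1% of genome windows, and 12 of these had no Hs578T peak. The leading site in the window of LOXL2, a collagen cross-linking enzyme, ranked 9 in BT549 with a score of 1085. The same peak also leads the window of SLC25A37, a locus outside the matrix list, so it cannot be credited to LOXL2. COL5A1, a fibrillar collagen chain, ranked 23 with 856.6, and TGFBI, a TGFβ-induced matrix adhesion protein, ranked 29 with 771.1. LOX itself had 7 BT549 peaks, the best at rank 457. Neighbouring collagen genes share windows (COL4A1 with COL4A2, COL6A1 with COL6A2), so these loci are not independent of each other.

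Proteases and their inhibitors had Hs578T peaks at 1 of 13 loci (7.69%), ADAM12, and BT549 peaks at 9 (69.2%), which stayed 9 with the shortened list. Of these 9, MMP1 and MMP13 share their best BT549 peak, rank 1672, and are not independent of each other. Of genome windows, 12.9% held a Hs578T peak, 41.3% a BT549 peak and 13.1% one of the shortened list. PLAU, the urokinase gene, had 5 BT549 peaks, the best at rank 184. Of 12 integrin loci, 2 held Hs578T peaks (16.7%, near the genome share) and 10 held BT549 peaks (83.3%), or 6 with the shortened list (50%). ITGB1, the common beta chain of many matrix receptors, had 9 BT549 peaks led by rank 21 and none in Hs578T. ITGB8, which activates latent TGFβ, was the integrin locus with its better rank in Hs578T, 173 against 3542 in BT549, from 1 overlapping Hs578T peak. That peak was 73 bp wide, where the median at Hs578T ranks 101 to 200 was 412 bp. Neither line had a 1.5 h peak there, while 68% of Hs578T peaks at those ranks recurred at 1.5 h.

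**Figure D4:**
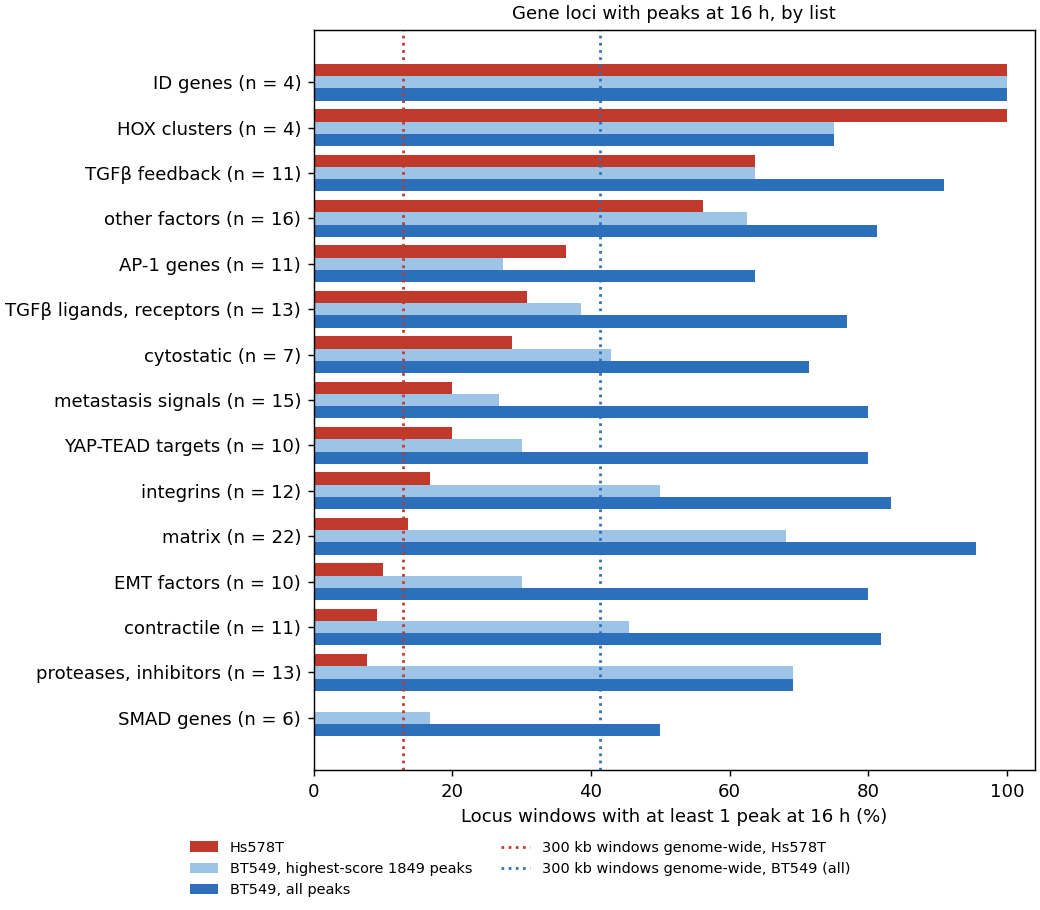
Share of the locus windows of each gene list (%) with at least 1 peak at 16 h: Hs578T (red), the 1849 highest-score BT549 peaks (light blue) and all BT549 peaks (dark blue); dotted lines give the share of 300 kb windows along the genome, 12.9% for Hs578T and 41.3% for BT549. The Hs578T bar reaches 100% for ID genes and HOX clusters and lies well under both BT549 bars for matrix, protease, integrin and contractile loci.

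Contractile loci held Hs578T peaks at 1 of 11 (9.09%) and BT549 peaks at 9 (81.8%), or 5 with the shortened list (45.5%). The shares of genome windows were 12.9%, 41.3% and 13.1%, in the same order. TPM1, a tropomyosin, led them with 5 BT549 peaks and rank 32, and MYH9 followed with 6 peaks and a best rank of 648. Among 10 loci of factors of epithelial-mesenchymal transition, 1 had a Hs578T peak (10%) and 8 had BT549 peaks (80%), or 3 with the shortened list (30%). The Hs578T shares of contractile loci and of these were thus near that of genome windows. SNAI1, which represses E-cadherin, had 3 BT549 peaks, the best at rank 119, and none in Hs578T. Among 10 YAP-TEAD target loci the counts were 2 for Hs578T (20%) and 8 for BT549 (80%), or 3 with the shortened list (30%). CCN1, a matricellular growth factor, had 7 BT549 peaks and none in Hs578T.

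Ligand, receptor and latency loci held Hs578T peaks at 4 of 13 (30.8%) and BT549 peaks at 10 (76.9%), or 5 with the shortened list (38.5%). Genome windows held them at 12.9%, 41.3% and 13.1%, in the same order. LTBP2, a microfibril protein, had 1 Hs578T peak at rank 1387 and 8 BT549 peaks led by rank 19. The window of LTBP3, which tethers latent TGFβ, had 1 Hs578T peak at rank 901 that overlapped a BT549 peak, and 12 BT549 peaks led by rank 89. The shared region, chromosome 11 from 65244862 to 65245275, ranked 511 in BT549. It lay apart from the leading BT549 peak, from 65326222 to 65327110, and which gene it belongs to was not determined. The SMAD genes themselves, SMAD1 to SMAD5 and SMAD9, had no Hs578T peak, and 3 of 6 had BT549 peaks, SMAD3 first with 4 peaks and rank 416. These 3 of 6 are near the 41.3% of genome windows with a BT549 peak, and 1 of 6 held one with the shortened list. Cytostatic genes had Hs578T peaks at 2 of 7 loci (28.6%) and BT549 peaks at 5 (71.4%), or 3 with the shortened list (42.9%). Overlaps were at GADD45A and GADD45B, the stress-response genes. MYC had 3 BT549 peaks led by rank 131 and CDKN1A 1 at rank 750, and neither had a Hs578T peak at 16 h.

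With list length equal, only AP-1 genes and HOX clusters had more loci in Hs578T than in BT549, each 4 against 3. Hs578T peaks were in 4 of 11 AP-1 loci (36.4%) and BT549 peaks in 7 (63.6%), or 3 with the shortened list (27.3%). The shares of genome windows were 12.9%, 41.3% and 13.1%. Each of the 4 Hs578T loci held 1 peak, at rank 422 for ATF3, 711 for JUN, 722 for MAFK and 1196 for FOSB. The highest of these scores was 87.51, at ATF3. ATF3, a stress-induced AP-1 relative, held the only overlap. JUNB had 5 BT549 peaks led by rank 405 and none in Hs578T. Of 15 loci for cytokines and other signals of metastasis, 3 held Hs578T peaks (20%) and 12 held BT549 peaks (80%), or 4 with the shortened list (26.7%). None of these loci held an overlap. LIF, an interleukin-6 family cytokine, had 7 BT549 peaks led by rank 91. HEY1, a Notch target, went the other way, with 5 Hs578T peaks led by rank 181 and 1 BT549 peak at rank 6073.

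The highest BT549 peaks without a Hs578T overlap began with 3 of the first 4 beside the longest peak-free spans of chromosomes 1, 7 and 6. These 3 and the DNAH17 site, rank 4, overlapped a Hs578T 1.5 h peak although they had none at 16 h. The other 16 of the 20 overlapped no Hs578T peak at either time. Among them, NFATC2, a calcium-regulated transcription factor, ranked 14, SPOCK1, a matrix proteoglycan, ranked 15, and CLDN14, a tight-junction claudin, gave a pair of sites at ranks 10 and 17. All 20 were also in the BT549 1.5 h list.

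Peaks without an overlap were seldom near misses. Of the unshared peaks, 1.63% in Hs578T (1.12 to 2.36) and 0.389% in BT549 (0.274 to 0.551) had a peak of the other line within 500 bp. Within 50 kb the shares were 25.9% in Hs578T (23.8 to 28.0) and 7.15% in BT549 (6.60 to 7.73). The median distance to the nearest peak of the other line was 142 kb for Hs578T peaks and 675 kb for BT549 peaks, the list searched being the longer one for Hs578T.

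The share of peaks on single chromosomes differed between the lines, for some chromosomes at both times. Chromosome X held 6.06% of Hs578T peaks (5.06 to 7.24) and 2.58% of BT549 peaks (2.25 to 2.94), a ratio of Hs578T over BT549 of 2.35 at 16 h and 2.60 at 1.5 h. Chromosome 2 held 7.63% of Hs578T and 4.83% of BT549 peaks, a ratio of 1.58, and chromosome 7 held 7.41% of Hs578T and 4.91% of BT549 peaks, a ratio of 1.51. Many of the 137 Hs578T peaks on chromosome 7 came from 2 windows, with 22 in HOXA and 18 in AUTS2. The AUTS2 window, added after the values were seen, is 1400 kb wide. Of 400 BT549 peaks on chromosome 7, HOXA held 5 and AUTS2 held 1, so this ratio does not describe the chromosome evenly. The ratio was 0.525 for chromosome 5, 0.521 for chromosome 8 and 0.544 for chromosome 9, and at 1.5 h it was 0.586, 0.489 and 0.554 for these. For chromosome 15 it was 1.60 at 16 h and 1.96 at 1.5 h. It was less alike at the times for chromosome 20, at 0.654 and 0.341, and lay on either side of 1 for chromosome 14, at 1.27 and 0.917, and chromosome 16, at 0.841 and 1.12. Among 16 h peaks with scores of at least 100, chromosome 15 went the other way, with 1.43% of Hs578T (5 peaks) and 1.98% of BT549 (54). At that score Hs578T still had the higher share on chromosomes 2, 7 and X and the lower on 5, 8 and 9. Only 2 of the 174 shared regions were on chromosome X. DNA copy number, which differs between tumour lines and changes read counts per region, was not measured here, and its part in these shares and in the locus counts was not tested.

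**Figure D5:**
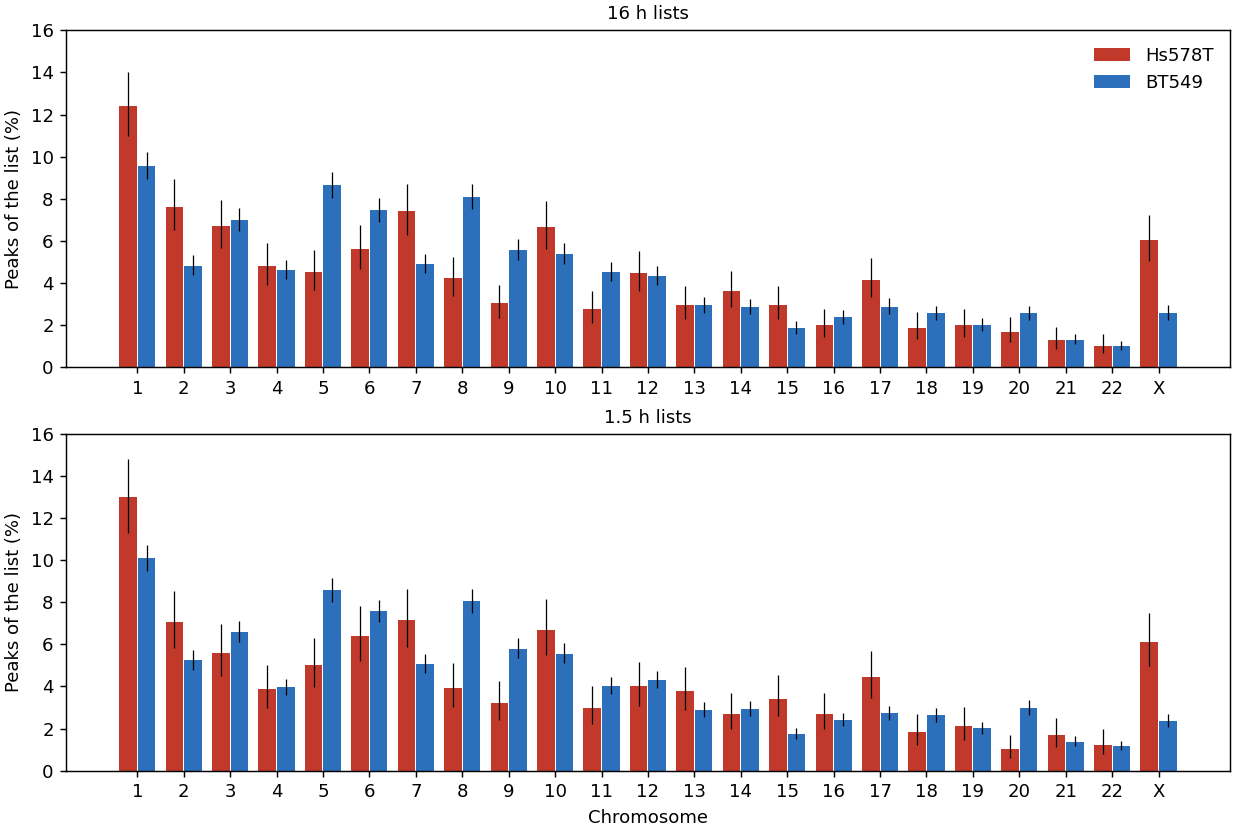
Share of each list's peaks on each chromosome (%), at 16 h (top) and 1.5 h (bottom), for Hs578T (red, left) and BT549 (blue, right), with 95% Wilson intervals as bars. At both times Hs578T exceeds BT549 on chromosomes 2, 7 and X and lies under it on 5, 8 and 9.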

How the data were processed

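The deposited files are peak lists on hg19, 1 per library. Bowtie 1.1.0, Picard and MACS 1.4.2 are named in the submitters' processing notes. How Picard was used, and whether input reads served as background, is not given in the sources used here. Each score is the value the authors' peak caller deposited with a peak; it rises with depth as well as enrichment, and was used to rank or filter peaks within a list. Peaks were called per sample, 1 list each.

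Positions were converted to count from 1. Overlap was 1 bp or more, counted in each direction, with 95% Wilson intervals; the code was checked on simulated lists, where 200 of 200 planted overlaps were found. Overlapping peaks were joined into regions. Genome windows were 300 kb wide, every 100 kb up to the last peak of a chromosome (1 to 22 and X). Peaks called beside a peak-free span lie less than 1 Mb from the longest such span of their chromosome. Python 3.11.15, numpy 2.4.6, scipy 1.17.1 and matplotlib 3.10.9 were used.

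The members, gene lists and lines compared were chosen with earlier results of these data known. Named peaks are the 20 leading shared regions, ordered by their worse rank, and the 20 first unshared peaks of each list; named loci are at most 4 per list, by highest score of either line, and the 10 loci with peaks of both lines and no overlap that have the best worse rank. Other loci named were chosen after their values were seen. Gene windows on hg19 were written from general knowledge of the genome map and rounded outward to 100 kb. They do not come from an annotation file, which was not at hand, and positions of the RefSeq table, on GRCh38.p14, were not set against peaks; the spans were only compared with that table, where COL5A2, CALD1, ZNF503 and SMAD4 differed most in length, and none was changed after that. Shares of all genes with a peak and motif shares in peaks were planned only for the case that hg19 annotation and sequence were at hand, and were not computed.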

Additional observations from a re-analysis of the deposited data

How the results depend on the processing

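No paired analysis was possible because each line had 1 library at 16 h, and leaving out a library leaves nothing to compare. The Hs578T share of 10.3% stayed between 10.2% and 11.7%, inside its interval, with scores of at least 100, peaks within 500 bp, autosomes only and peaks beside the longest peak-free spans left out. It was 5.30% when 50% of both peaks had to overlap, 4.16% with equal numbers of highest-score peaks and 12.6% with peaks of at least 150 bp. The BT549 share of 2.17% stayed at 2.20% on autosomes and 2.16% without those beside peak-free spans. It was 1.43% with scores of at least 100, 1.20% at 50% overlap, 2.55% within 500 bp, 3.46% with equal numbers and 1.64% with peaks of at least 150 bp. The following alternatives were chosen after seeing the data, as were the windows. In 200 kb windows, the genome shares were 8.95% for Hs578T, 31.3% for BT549 and 3.85% for both. With scores of at least 100 they were 2.32%, 18.3% and 0.738%, and the shares of gene list windows were 11.5% for Hs578T, 59.4% for BT549 and 5.45% with an overlap. With equal numbers, BT549 peaks were in 13.1% of genome windows and 49.1% of gene list windows, and both lines in 2.47% of genome windows. Fewer peaks or narrower windows give lower shares by construction; other causes were not tested. The alternatives listed for genes and motifs were not run, for want of hg19 annotation and sequence. Depth is unknown, so a peak not listed in one line is not shown to be unbound there.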
